A study of Danio rerio with 12 samples.

Results

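Hearts of zebrafish that overexpress ATF3 in heart muscle, Tg(myl7:ATF3), were compared with hearts of wild-type siblings at 12 months post-fertilization (mpf). The myl7 promoter restricts the transgene to cardiomyocytes, while the RNA came from whole cardiac tissue. The comparison rests on 6 of the 12 libraries of the series, 3 from Tg(myl7:ATF3) and 3 from wild-type hearts of 12 mpf, which were fitted alone since 46 to 193 of the genes with values were listed at 0 in the 6 libraries of 4 mpf, against 3 to 9 at 12 mpf. The labels give the replicates as biological and do not say whether a library came from 1 heart or from several pooled ones. Values in FPKM (fragments per length of transcript, scaled by a factor per library) were present for 400 of the 32520 genes in the table. How these 400 were chosen is not known. The other 32120 had no values to analyse. Among these were atf3, myl7 and all 9 of the cardiomyocyte markers chosen to check the tissue label, so neither the transgene nor the cell type could be checked.

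ATF3 is a stress-induced transcription factor of the ATF/CREB family. It pairs with JUN and other bZIP proteins and acts downstream of the integrated stress response, in which phosphorylation of a translation factor lowers general protein synthesis and raises transcripts of amino acid supply, redox control and protein folding. In heart muscle, forced ATF3 expression is known from mouse lines to enlarge the heart and disturb conduction, and the title of the series names hypertrophy, electrical dysfunction and proliferation in the fish.

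The FPKM values could be turned back into whole reads, which give the depth of each value. The 400 genes held 194117 to 246362 reads in the Tg(myl7:ATF3) libraries and 133852 to 286257 in the wild-type libraries. Cytosolic rRNA and mt-nd6 made up most of them, with mt-nd6 alone at 37.1% to 55.1%. The gene mt-nd6 lies on the other strand from the mitochondrial genes mt-nd4 and mt-nd5, which had values too. Whether reads were counted on the strand of the named gene was not tested. Without the rRNA and mitochondrial genes, 41025 to 49326 reads remained in Tg(myl7:ATF3) and 32278 to 41822 in wild-type libraries. The wild-type library of replicate 3 had the fewest reads and the lowest rRNA share, 18.01% against 31.5% to 41.3% in the other 5. Spearman correlations across the genes lay between 0.855 and 0.882 among the Tg(myl7:ATF3) libraries and between 0.801 and 0.834 among the wild-type libraries. Between genotypes they lay between 0.768 and 0.833. No batch is named in the labels.

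In 80 of the 399 genes tested, all 3 Tg(myl7:ATF3) libraries lay on 1 side of all 3 wild-type libraries. That is 20.1% of the genes, with 46 higher in Tg(myl7:ATF3) hearts (11.5%) and 34 lower (8.52%). For a single gene such a separation is the most extreme order that 3 libraries against 3 allow, and the exact permutation test then gives its smallest p, 0.1 (two-sided). The median ratio of group means was 2.04 among the 46 higher genes and 2.16 among the 34 lower ones, and 24 and 21 of them differed by at least 2-fold. The lower gene BX323041.1, whose Tg(myl7:ATF3) mean was 0, has no ratio and is left out of the 2.16 and the 21. By limma with Benjamini-Hochberg adjustment 1 gene passed the threshold of 0.05 (0.251% of the genes), and 50 were at an unadjusted p under 0.05 (12.5%). Of those 50, 28 were among the 46 higher and 18 among the 34 lower genes. Separation is therefore a description of the measured values, and apart from that 1 gene no other genotype difference at 12 mpf passed the adjusted test. Among the separate genes, 8 of the higher and 9 of the lower ones had under 30 recovered reads over the 3 libraries of their lower group.

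**Figure D1:**
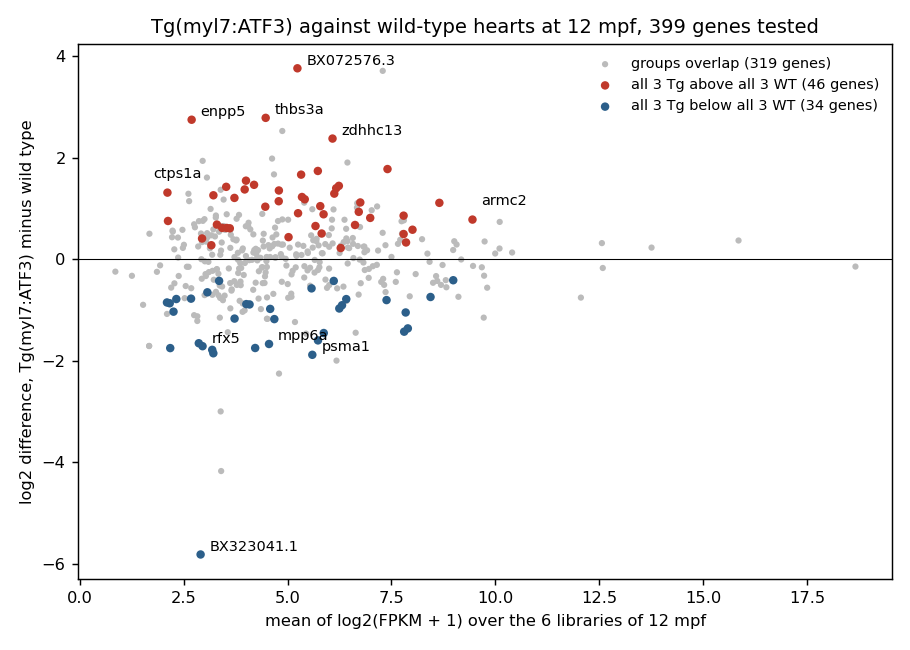
Each point is 1 of the 399 genes tested, with the mean of log2(FPKM + 1) over the 6 libraries of 12 mpf on the horizontal axis and the log2 difference, Tg(myl7:ATF3) minus wild type, on the vertical axis. Red and blue points are the 46 and 34 genes whose groups did not overlap, and BX323041.1 at -5.82 lies farthest from 0.

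The gene zgc:194312 lay just inside it, at 275, 246 and 282 FPKM in Tg(myl7:ATF3) against 688, 283 and 465 FPKM in wild-type hearts. Just outside it was bspry, at 33.7, 23.4 and 14.5 FPKM in Tg(myl7:ATF3) against 60.0, 33.4 and 81.1 FPKM in wild-type hearts. The widest gap between groups on the log2 scale belonged to BX323041.1, and the next to thbs3a and dedd.

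The 1 gene that passed was the lincRNA BX323041.1, on the minus strand of chromosome 7 from 54926474 to 54935564 (GRCz11). No function is annotated for it. It was listed at 0 in all 3 Tg(myl7:ATF3) libraries and at 29.9, 90.6 and 62.4 FPKM in the wild-type libraries. Those values rest on 0 reads in Tg(myl7:ATF3) and 64 in wild-type libraries. Against a floor of 3 reads per library the gene fell at least 7.69-fold. The bound covers counting error only, since reads without molecular identifiers are not separate molecules. On the log2(FPKM + 1) scale the difference was -5.82 (SE 0.51, limma, adjusted p = 0.000480). With 0.1 or 5 FPKM added in place of 1 it was -9.11 or -3.60, so its size depends on the value added. The 3 Tg(myl7:ATF3) libraries at 0 show no spread, and the gene met the filter for testing only through the wild-type libraries. With limma voom on the recovered reads the call was lost (adjusted p = 0.0650), as it was with all 12 libraries fitted together (adjusted p = 0.852). Over its 19 alternatives, adjusted p ran from 0.000242 to 0.852, and the call held in 17. These include refits with no filter that were chosen after seeing the data. They leave out the planned fits without a wild-type library, in which the gene did not meet the filter and was not tested. At 4 mpf the order was not the same, with 84.9, 56.9 and 134 FPKM in Tg(myl7:ATF3) against 0, 0 and 109 FPKM in wild-type hearts. The difference between the ages did not pass (interaction -10.01 on the log2 scale, SE 2.16, limma, adjusted p = 0.0813), but it passed with arrayWeights and without wild-type replicate 3 of 4 mpf. It has no gene with a 3' end on the other strand within 5000 bases.

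Among the higher genes the widest gap between groups was that of thbs3a, which codes for a thrombospondin, a calcium-binding glycoprotein of the extracellular matrix. It is annotated on chromosome 16 from 42900238 to 42933332, on the minus strand. It stood at 61.8, 58.0 and 52.6 FPKM in Tg(myl7:ATF3) against 4.08, 15.1 and 6.43 FPKM in wild-type hearts, from 262 and 37 reads. Every Tg(myl7:ATF3) library was more than 3 times above every wild-type library. The log2 difference was 2.78 (SE 0.49, limma, adjusted p = 0.0581), just short of the threshold. It passed in 4 of 22 alternatives, refits with no filter included, with adjusted p from 0.0144 to 0.999. At 4 mpf it was listed at 0, 90.9 and 0 FPKM in Tg(myl7:ATF3) against 41.1, 33.6 and 12.3 FPKM in wild-type hearts, and those groups overlapped.

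None of the other separate genes passed. For the 15 higher genes with the smallest p, thbs3a aside, adjusted p lay between 0.169 and 0.223, and for the 15 lower ones, BX323041.1 aside, between 0.169 and 0.371 (limma). Their values follow, ordered by the known role of each gene, and the order names no group that was tested.

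The CTP synthase gene ctps1a, whose enzyme makes the cytidine nucleotide for RNA and lipid synthesis, was at 6.19, 6.86 and 4.57 FPKM in Tg(myl7:ATF3) against 1.299, 1.81 and 2.19 FPKM in wild-type hearts. These low values rest on 56 and 15 reads, and the log2 difference was 1.31 (SE 0.41). The rRNA methyltransferase gene ftsj3 was at 71.4, 56.8 and 62.2 FPKM in Tg(myl7:ATF3) against 23.3, 26.3 and 33.2 FPKM in wild-type hearts, a log2 difference of 1.18 (SE 0.35). Another rRNA methyltransferase gene, mettl5, was lower, at 19.0, 11.4 and 19.1 FPKM in Tg(myl7:ATF3) against 35.2, 23.0 and 42.9 FPKM in wild-type hearts (log2 difference -0.98, SE 0.42), and was chosen after its values were seen. For ftsj3, replicates of both groups were close together, and the lowest Tg(myl7:ATF3) value was well above the highest wild-type one. The ribosomal protein gene rpl17 was at 310.4, 283 and 300.2 FPKM in Tg(myl7:ATF3) against 203, 172 and 126 FPKM in wild-type hearts, a log2 difference of 0.86 (SE 0.32, limma, adjusted p = 0.279). Of the 5 measured genes of the ribosomal protein list, rpl17 was the 1 whose groups were apart, a share near the 20.1% of all genes. The median over those 5 was 0.50, against 0.06 over all genes. The DNA helicase gene ddx11, needed for sister chromatid cohesion, was at 24.8, 31.2 and 23.6 FPKM in Tg(myl7:ATF3) against 5.37, 11.1 and 9.68 FPKM in wild-type hearts.

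The gene ndufb2, an accessory subunit of respiratory complex I, was at 130.2, 224 and 134 FPKM in Tg(myl7:ATF3) against 73.3, 88.7 and 57.8 FPKM in wild-type hearts (log2 difference 1.12, SE 0.37). The 2 other measured nuclear genes of oxidative phosphorylation overlapped between groups, ndufa3 at -0.39 and atp5f1e at -0.74, so the list had no common direction. The aldo-keto reductase gene akr7a3, whose family reduces reactive aldehydes, was at 27.9, 13.4 and 15.1 FPKM in Tg(myl7:ATF3) against 5.48, 4.41 and 8.89 FPKM in wild-type hearts. Of the 12 measured mitochondrially encoded protein genes, mt-co3, a subunit of cytochrome c oxidase, was the 1 apart, where 8.52% of all genes were apart and lower. It was at 149.5, 119.7 and 109.7 FPKM in Tg(myl7:ATF3) against 309, 195 and 176 FPKM in wild-type hearts (log2 difference -0.81, SE 0.35, limma, adjusted p = 0.379). The median over those 12 genes was -0.37, and 0 of them passed.

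The palmitoyltransferase gene zdhhc13, whose enzyme adds fatty acids to proteins, was at 253, 120.4 and 118 FPKM in Tg(myl7:ATF3) against 37.5, 12.0 and 51.6 FPKM in wild-type hearts. It had 682 and 123 reads, a log2 difference of 2.38 (SE 0.57, and 1.78 without wild-type replicate 2) and a spread between replicates that was large in both groups. The tight junction scaffold gene tjp2b was at 52.0, 27.4 and 17.7 FPKM in Tg(myl7:ATF3) against 13.9, 8.60 and 8.36 FPKM in wild-type hearts. The ectonucleotidase family gene enpp5 was at 34.9, 5.91 and 17.9 FPKM in Tg(myl7:ATF3) against 0, 2.99 and 2.90 FPKM in wild-type hearts, with 108 and 10 reads. Its 9.98-fold ratio of means was the highest among the 46 genes, but the wild-type side rests on those 10 reads. Its log2 difference was 2.75 (SE 0.75), and 2.09 without wild-type replicate 1. The secreted phosphoprotein gene spp2 was at 186, 134 and 74.8 FPKM in Tg(myl7:ATF3) against 41.5, 40.5 and 53.1 FPKM in wild-type hearts. The ubiquitin ligase gene trim3a was at 49.3, 78.8 and 59.2 FPKM in Tg(myl7:ATF3) against 18.8, 24.1 and 37.1 FPKM in wild-type hearts.

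The remaining genes of the higher 15 carry clone names or no role that is certain. The gene zgc:153284 had tight groups, 120.1, 107 and 98.9 FPKM in Tg(myl7:ATF3) against 42.4, 46.2 and 42.4 FPKM in wild-type hearts (log2 difference 1.29, SE 0.32). The gene ccdc84 was at 51.5, 56.2 and 27.9 FPKM in Tg(myl7:ATF3) against 16.5, 20.7 and 12.7 FPKM in wild-type hearts. The gene si:ch211-131k2.2 averaged 73.6 ± 26.7 FPKM in Tg(myl7:ATF3) and 21.9 ± 5.17 FPKM in wild-type hearts, with SD over 3 libraries each. The processed transcript BX936308.2 averaged 313 ± 25.6 FPKM in Tg(myl7:ATF3) and 112 ± 90.3 FPKM in wild-type hearts (SD, n = 3 each). Its log2 difference was 1.77. It was 1.26 without wild-type replicate 1, 1.67 without replicate 2 and 2.39 without replicate 3.

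**Figure D2:**
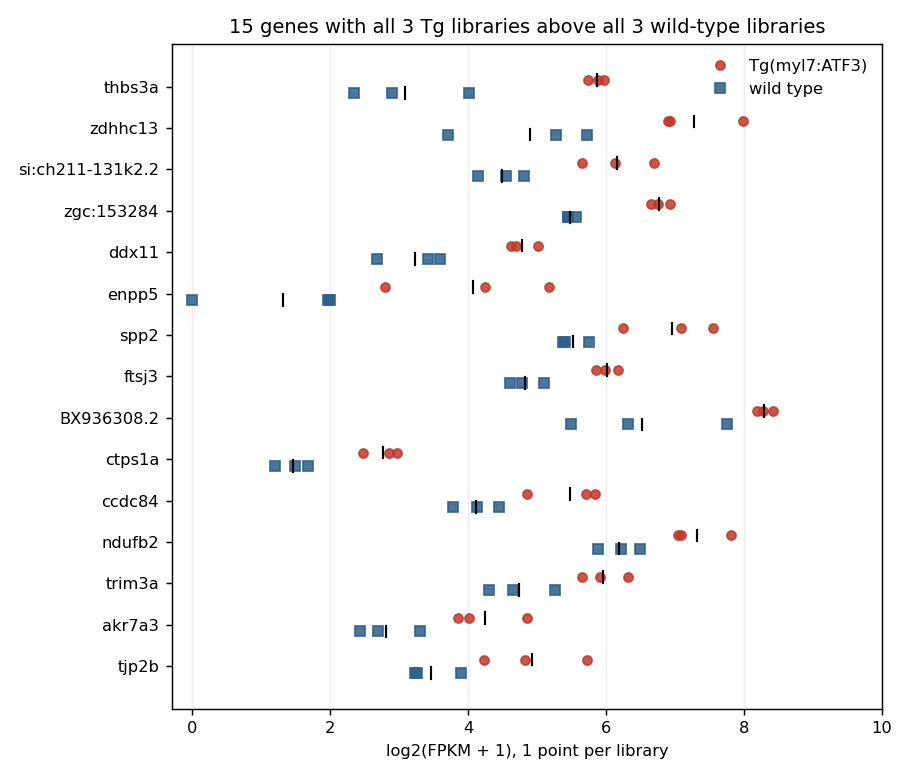
Values of log2(FPKM + 1) in the 3 Tg(myl7:ATF3) libraries (red circles) and the 3 wild-type libraries (blue squares) of 12 mpf for the 15 higher genes with the smallest p, with a black bar at each group mean. The gap between groups is widest for thbs3a, and the wild-type libraries spread widely for BX936308.2, zdhhc13 and enpp5.

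The lower genes included regulators of chromatin and transcription. The histone demethylase gene kdm6a, which removes a repressive mark, was at 29.4, 27.1 and 32.3 FPKM in Tg(myl7:ATF3) against 102, 158 and 47.4 FPKM in wild-type hearts (log2 difference -1.60, SE 0.47). The wild-type libraries spread widely and the Tg(myl7:ATF3) libraries hardly at all. The same shape was seen for ino80, the ATPase of a chromatin remodelling complex, at 59.8, 57.1 and 54.2 FPKM in Tg(myl7:ATF3) against 79.8, 90.5 and 173 FPKM in wild-type hearts (log2 difference -0.91, SE 0.39). The gene rfx5, whose protein activates MHC class II genes, was at 5.19, 3.18 and 2.03 FPKM in Tg(myl7:ATF3) against 11.9, 13.2 and 14.1 FPKM in wild-type hearts, from 27 and 95 reads. The other measured gene of the lymphocyte list, the B-cell surface gene cd22, was at 17.7, 90.3 and 68.4 FPKM in Tg(myl7:ATF3) against 21.9, 6.76 and 9.85 FPKM in wild-type hearts, and its groups overlapped in 1 library.

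Both measured genes of the proteasome and chaperone list were apart and lower, where 8.52% of all genes were. They code for alpha subunits of the proteasome core, and neither passed. The gene psma1 was at 46.5, 8.55 and 34.2 FPKM in Tg(myl7:ATF3) against 55.9, 93.4 and 149 FPKM in wild-type hearts (log2 difference -1.88, SE 0.64). Without Tg(myl7:ATF3) replicate 2 the psma1 difference was -1.18. The gene psma6b was at 59.9, 45.6 and 55.0 FPKM in Tg(myl7:ATF3) against 75.5, 213 and 72.2 FPKM in wild-type hearts (log2 difference -0.97, SE 0.47, limma, adjusted p = 0.455). Of the wild-type psma6b values, 1 stood far above the others. The proteasome activator gene psme2, outside the list and chosen after its values were seen, was higher, at 328, 222 and 248 FPKM in Tg(myl7:ATF3) against 167, 193 and 199.5 FPKM in wild-type hearts (log2 difference 0.49, SE 0.31). The proton pump gene atp6v1e1a, a subunit of the vacuolar ATPase, was at 10.7, 7.65 and 9.42 FPKM in Tg(myl7:ATF3) against 26.2, 66.2 and 20.9 FPKM in wild-type hearts. The heme synthesis gene alad, 1 of 2 measured genes of the erythrocyte list, was at 0, 7.48 and 12.7 FPKM in Tg(myl7:ATF3) against 16.3, 21.0 and 13.5 FPKM in wild-type hearts. Its log2 difference was -1.85, and -0.71 without Tg(myl7:ATF3) replicate 1, the library at 0. The second, hemgn, overlapped between groups at a log2 difference of -0.21.

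The scaffold gene mpp6a, of a family that organises membrane complexes, was at 11.8, 10.6 and 14.3 FPKM in Tg(myl7:ATF3) against 31.2, 52.8 and 41.6 FPKM in wild-type hearts (log2 difference -1.67, SE 0.39). Its groups were far apart relative to their spread, with 106 and 328 reads. The death effector domain gene dedd was at 3.94, 3.47 and 2.13 FPKM in Tg(myl7:ATF3) against 10.5, 13.0 and 12.4 FPKM in wild-type hearts (log2 difference -1.66, SE 0.43). The Ras GTPase-activating gene syngap1b was at 1.39, 2.64 and 0.724 FPKM in Tg(myl7:ATF3) against 5.35, 5.53 and 12.8 FPKM in wild-type hearts, near the lowest level that could be measured. A gene with no name in the table, ENSDARG00000061421, is BRSK2, a protein kinase gene, in the gene name table. It averaged 7.999 ± 2.19 FPKM in Tg(myl7:ATF3) and 19.1 ± 3.57 FPKM in wild-type hearts (SD, n = 3 each). The genes szrd1, si:dkey-57n24.6 and si:ch211-245h14.1 averaged 16.2, 4.81 and 169.8 FPKM in Tg(myl7:ATF3) against 40.7, 16.4 and 329.9 FPKM in wild-type hearts.

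**Figure D3:**
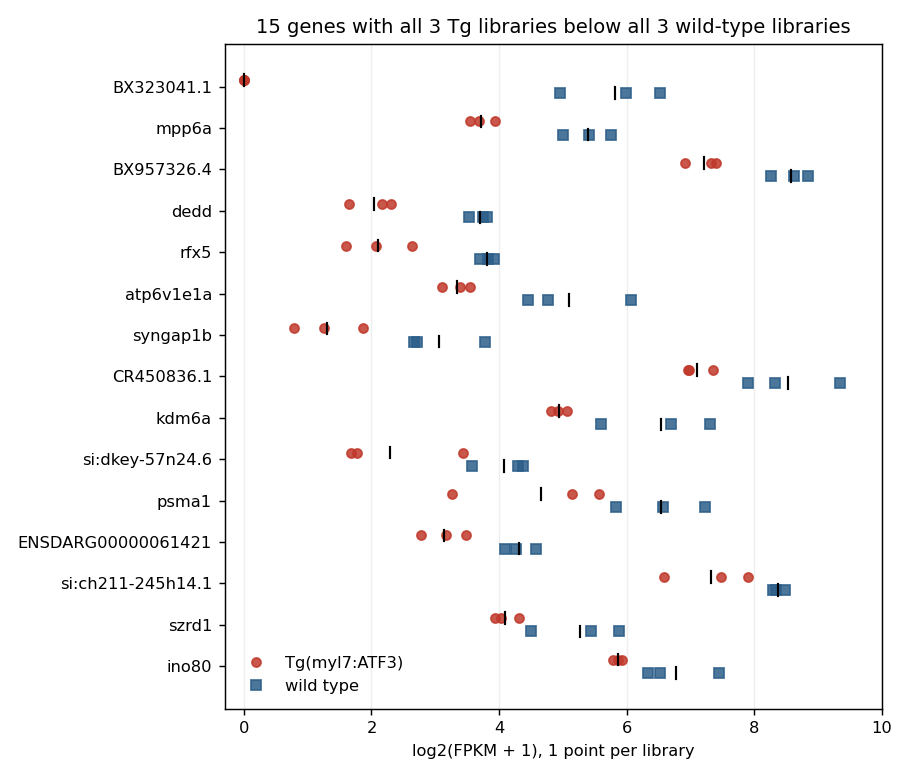
Values of log2(FPKM + 1) in the 3 Tg(myl7:ATF3) libraries (red circles) and the 3 wild-type libraries (blue squares) of 12 mpf for the 15 lower genes with the smallest p, with a black bar at each group mean. All 3 Tg(myl7:ATF3) libraries of BX323041.1 lie at 0, and for kdm6a and ino80 the Tg(myl7:ATF3) points lie close together while the wild-type points spread.

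Genes annotated as antisense made up 12 of the 80 separate genes (15%) and 30 of the 320 others (9.38%). Of the 12, 7 were higher and 5 lower in Tg(myl7:ATF3) hearts. The antisense gene BX957326.4, opposite the membrane protein gene tmem82, was at 167, 159.6 and 120.0 FPKM in Tg(myl7:ATF3) against 459, 305 and 394 FPKM in wild-type hearts (log2 difference -1.36, SE 0.33). The antisense gene CR450836.1, opposite dmtn, which codes for an actin-bundling protein of the red cell membrane skeleton, was at 162, 125 and 123 FPKM in Tg(myl7:ATF3) against 319.6, 649.6 and 237 FPKM in wild-type hearts. The largest difference of this class, chosen after its values were seen, was that of BX072576.3, opposite the Wnt agonist gene rspo3. It was at 82.4, 94.9 and 334 FPKM in Tg(myl7:ATF3) against 23.4, 43.3 and 0 FPKM in wild-type hearts, a log2 difference of 3.76 with an SE of 1.47 (limma, adjusted p = 0.371). It was 2.08 without wild-type replicate 3 and 4.82 without wild-type replicate 2.

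Most of the separate genes, coding ones included, have the 3' end of a gene on the other strand inside or near them. Such a 3' end lay inside 54 of the 80 (67.5%) and inside or within 5000 bases of 72 (all but 8). Among the 320 genes whose groups overlapped the shares were 56.3% and 86.9%, and among the genes of the table without values 9.93% and 28.5%. The separate genes therefore share this position with the measured genes as a whole. The 72 genes have 82 different opposite genes, 67 of them protein-coding, and only 3 of the 82 have values of their own. For alad, zgc:152753 and mt-co3 the opposite gene lies beyond the 5' end of the measured gene, without overlap. The genes of these pairs point away from one another. Of the 82, 4 are rRNA genes and 5 are snoRNA genes. The only opposite 3' end inside ddx11, rfx5 and rabgap1l is that of an rRNA gene, and those inside ctps1a are all of snoRNA genes. In the 64 pairs with the 3' end inside, it lay a median of 1921.5 bases from the 3' end of the measured gene, and within 1000 bases in 18. The library kit places reads near 3' ends and keeps their strand, but which strand was counted is not stated. Where the spans overlap, reads of a gene and of its opposite partner therefore cannot be told apart from this table. For 18 of the 72 genes the opposite 3' end lay outside, 17 to 4967 bases away. Whether reads of the partner were counted for these genes was not tested. The coordinates are those of whole genes, and exons were not analysed here. The 8 separate genes without such a partner were BX323041.1, enpp5, ftsj3, syngap1b, sall4, sp100.3, BX890543.1 and CT009620.1.

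The opposite genes include genes of heart muscle and of the stress response, which had no values of their own. The values of the measured gene on the other strand are given for each. Opposite zdhhc13 lies csrp3, the muscle LIM protein gene, which anchors signalling at the Z-disc of the sarcomere. The 2 genes overlap by 871 bases at their 3' ends on chromosome 7, where csrp3 runs from 16548219 to 16562202 on the minus strand. Of 6 measured genes that face a sarcomere or Z-disc gene, zdhhc13 was the 1 whose groups were apart, a share near the 20.1% of all genes. The others face acta1b, tnnc1a, fhl1a, myh7ba and lmod2a, and the median log2 difference over the 6 was 0.37.

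Opposite armc2, a gene of the ciliary axoneme, lies sesn1, which codes for a sestrin, a stress-induced regulator of redox state and of growth signalling. The overlap spans 2948 bases on chromosome 20. The values on the armc2 strand were 1030.0, 1071 and 696 FPKM in Tg(myl7:ATF3) against 519, 579.5 and 504 FPKM in wild-type hearts. It was covered by 7490 and 3948 reads, and the log2 difference was 0.78 (SE 0.31, limma, adjusted p = 0.314). An antisense gene, BX842669.1, also ends inside armc2. Opposite ino80 lies chac1, a glutathione-degrading enzyme gene known in mammals as a target of the ATF4, ATF3 and CHOP factors. All 2571 bases of chac1 lie inside ino80, on chromosome 20 from 28266892 to 28269462. The values on the ino80 strand, given above, were lower in all 3 Tg(myl7:ATF3) libraries. The 2 measured genes that face the stress response list were therefore apart in opposite directions. Neither passed, and 20.1% of all genes were apart.

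Other opposite genes belong to metabolism, the cytoskeleton and the ribosome. The gene hgd, a tyrosine catabolism enzyme, faces ndufb4, an accessory subunit of complex I, with an overlap of 4077 bases. It was at 496, 485 and 350.3 FPKM in Tg(myl7:ATF3) against 649.8, 566 and 545 FPKM in wild-type hearts (log2 difference -0.42, SE 0.30, limma, adjusted p = 0.621). Of 5 measured genes that face a nuclear gene of oxidative phosphorylation it was the 1 apart, a share near the 20.1% of all genes, and their median was -0.42. The gene rpl17 faces pgam2, the muscle phosphoglycerate mutase of glycolysis, and nefma, both far from its own 3' end. Of 2 measured genes that face the list of glycolysis and other energy metabolism, rpl17 was the 1 apart, and their median was 0.48. The gene zgc:153284 holds the whole of rps12, a ribosomal protein gene, on its other strand, with 2 snoRNA genes. Of 4 measured genes that face a ribosomal protein gene, zgc:153284 was the 1 apart. It was higher in Tg(myl7:ATF3), while the median log2 difference over the 4 was -0.30. The BCL2 family gene bcl2l16 faces the tubulin gene tubb2b, which is on the cell cycle list. It was at 117, 125 and 129 FPKM in Tg(myl7:ATF3) against 49.8, 114 and 80.3 FPKM in wild-type hearts (log2 difference 0.67, SE 0.38). Of 3 measured genes that face a gene of that list, bcl2l16 was the 1 apart, and their median was -0.70. The proteasome gene psma6b faces nfkbiaa, the inhibitor of NF-kB, with an overlap of 352 bases. The kinesin gene kifc3, chosen after its values were seen, faces wt1b, a transcription factor gene of the epicardium. It was at 14.2, 8.50 and 19.5 FPKM in Tg(myl7:ATF3) against 5.87, 8.02 and 2.50 FPKM in wild-type hearts. Of 2 measured genes that face the list of epicardium, fibroblasts and smooth muscle, kifc3 was the 1 apart, and their median was 0.05. For all of these shares, 20.1% of all genes were apart.

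**Figure D4:**
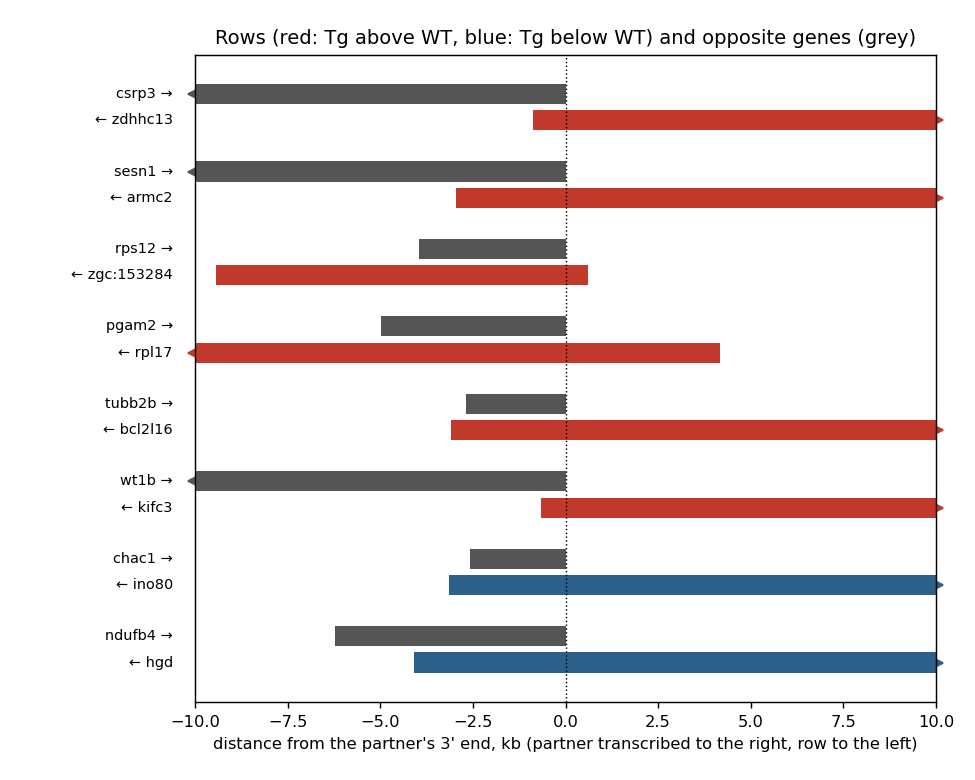
Gene spans of 8 measured genes (red where Tg(myl7:ATF3) lay above wild type, blue where it lay below) and of the gene on the other strand (grey), drawn to scale against the distance in kb from the 3' end of the opposite gene. Arrowheads mark spans that go on beyond the axis, and in each pair the 3' end of the grey gene lies inside the coloured one.

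For 3 genes the opposite partner had values too. The complement gene c4, opposite trim3a, had a log2 difference of 0.58 (SE 0.52, limma, adjusted p = 0.655), beside 1.22 for trim3a. The coenzyme Q kinase gene coq8aa, opposite si:ch211-245h14.1, had 0.47 (SE 0.45, limma, adjusted p = 0.657), beside -1.05. The RNA-binding gene lsm5, opposite psme2, had 0.27 (SE 0.43, limma, adjusted p = 0.789), beside 0.49. Groups overlapped in all 3 partners.

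The lists that bear on the title of the series had few measured members. The thrombospondin gene thbs3a was not on the extracellular matrix list. None of the genes of the sarcomere, natriuretic peptide and hypertrophy, ion channel, AP-1 or extracellular matrix lists had a value. Of the cell cycle list 4 genes did, and in 0 of these 4 were the groups apart. Log2 differences were 0.96 for the replication gene gins1, 0.59 for the cytokinesis gene racgap1, 0.47 for the nucleotide pyrophosphatase gene dut and -0.54 for the replication inhibitor gmnn, with SE from 0.45 to 0.53. The stress response list had 1 measured gene, the serine synthesis enzyme psph, at 773 FPKM in Tg(myl7:ATF3) and 871 FPKM in wild-type hearts on average (log2 difference -0.16, SE 0.29). Lists of endothelium, thrombocytes, epicardium and fibroblasts, and skeletal muscle had 0 measured genes, so the share of these cells in the tissue was not tested. Of the macrophage and neutrophil list only grnas, a granulin gene annotated as antisense, had values, at 0, 9.77 and 3.74 FPKM in Tg(myl7:ATF3) against 6.39, 192 and 17.3 FPKM in wild-type hearts. Of the liver, gut and epithelium list, cldni and itih2 had log2 differences of 0.25 each. Groups overlapped in all 3. In bulk tissue, fewer cells of a type and less RNA per cell cannot be told apart.

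The 4 mpf libraries, which share no sample with those of 12 mpf, gave the same comparison at an earlier age. There the groups did not overlap in 48 of 400 genes (12.0%), 29 higher (7.25%) and 19 lower (4.75%). Of the 46 genes higher at 12 mpf 6 were also higher at 4 mpf (13.0%) and 1 was lower. Of the 34 genes lower at 12 mpf 4 were also lower at 4 mpf (11.8%) and 1 was higher. The 10 genes in the same direction are 12.5% of the 80 and 20.8% of the 48. They were armc2, ctps1a, trim3a, bcl2l16, oard1 and BX072576.3 (higher) and alad, si:ch211-245h14.1, BX957326.4 and BX572077.1 (lower). Over the 40 higher genes tested at 4 mpf the median difference there was 0.56, with 29 of the same sign. Over the 30 lower genes it was 0.47, with 11 of the same sign, against 0.27 over all genes at that age.

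Of the 10, armc2 was at 622, 666 and 651 FPKM in Tg(myl7:ATF3) against 257, 508 and 535 FPKM in wild-type hearts at 4 mpf. The ADP-ribose hydrolase gene oard1, opposite apobec2b, an mRNA-editing enzyme family gene of muscle, was chosen after its values were seen. At 12 mpf it was at 114, 169 and 155 FPKM in Tg(myl7:ATF3) against 72.8, 59.7 and 97.2 FPKM in wild-type hearts. At 4 mpf it was at 85.7, 139 and 201 FPKM in Tg(myl7:ATF3) against 22.6, 39.8 and 29.8 FPKM in wild-type hearts. The gene trim3a was at 97.9, 67.1 and 65.1 FPKM in Tg(myl7:ATF3) against 26.3, 10.5 and 4.13 FPKM in wild-type hearts at 4 mpf.

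The effect at 12 mpf differed from that at 4 mpf for 2 of 400 genes (0.500%, interaction of genotype and age, limma, adjusted p under 0.05). The gene mpp6a was lower in all Tg(myl7:ATF3) libraries at 12 mpf and higher at 4 mpf, where it was at 9.25, 11.0 and 22.8 FPKM in Tg(myl7:ATF3) against 0.569, 0 and 0 FPKM in wild-type hearts (interaction -5.29 on the log2 scale, SE 1.02, limma, adjusted p = 0.0482). The processed transcript CU695215.2 overlapped between groups at 12 mpf, at 167, 137 and 281 FPKM in Tg(myl7:ATF3) against 181, 59.3 and 202 FPKM in wild-type hearts. Its interaction was 7.42 (SE 1.40, limma, adjusted p = 0.0482). Most of that came from 4 mpf, where the mean log2 value was lower in Tg(myl7:ATF3) than in wild-type hearts. Both calls were lost in 13 of 17 alternatives, and leaving out any 1 of the 6 libraries of 12 mpf left 0 genes by limma (20 to 25 at an unadjusted p under 0.05).

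**Figure D5:**
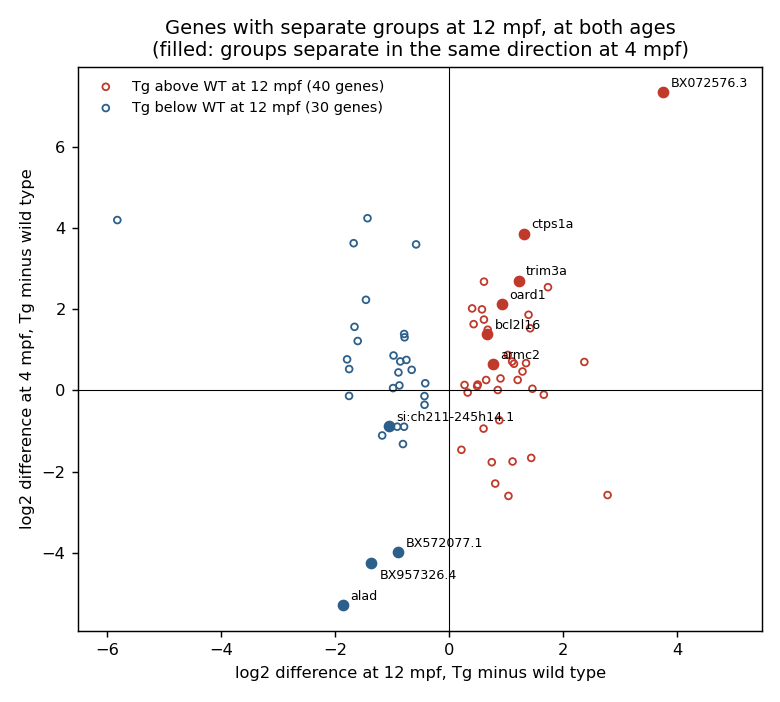
Log2 difference, Tg(myl7:ATF3) minus wild type, at 12 mpf (horizontal) and at 4 mpf (vertical) for the 40 higher (red) and 30 lower (blue) genes of 12 mpf that were also tested at 4 mpf, each fitted with the 6 libraries of its age. The 10 filled, named points had groups apart in the same direction at both ages.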

How the data were processed

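The authors deposited 1 table of FPKM values, with gene coordinates, strands and biotypes. Its 12 value columns each matched 1 library by name. Per the submitters' processing notes, the build was GRCz11 and the tools included DESeq2, RSEM, STAR and Trim Galore. Their versions, the annotation and the strand counted are not stated. Per the labels' protocols, a strand-keeping QuantSeq 3' kit was used.

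Reads were recovered by solving a factor per library from mitochondrial genes and a length per gene, and were whole within 0.0001 reads for all 400 genes with values. The depth behind each value is limited to these reads, and floors of 3 reads cover counting error only. The main test used log2(FPKM + 1), a minimum of 1 FPKM in 3 or more of the 6 libraries, and limma 3.58.1 in R 4.3.3, with eBayes trend and robust. Fold changes on this scale understate low genes. The interaction used all 12 libraries. Opposite genes are those on the other strand with a 3' end inside a gene, or else the nearest within 5000 bases on either side. Alternatives changed the pseudocount, filter, scaling, libraries, weights, window and tool (voom), added a replicate block or left out single libraries. Scripts were tested on simulated data. Python 3.11.15 with pandas 2.3.3 was used otherwise.

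The gene lists (21, with 1134 genes found in the table), the rules and the members were chosen with earlier results of these data known. Named were genes that passed, the 15 higher and 15 lower separate genes with the smallest p, separate genes on a list, and separate genes opposite a gene of the muscle, stress, cell cycle, matrix or metabolism lists. Some individual genes are not reported here.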

Additional observations from a re-analysis of the deposited data

Results flagged for a closer look

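The genotype effect differed between the ages by the interaction test for 2 genes. For mpp6a the interaction was -5.29 on the log2 scale (SE 1.02, limma, adjusted p = 0.0482, 0.0199 to 0.260 over its alternatives). For CU695215.2 it was 7.42 (SE 1.40, limma, adjusted p = 0.0482, 0.00282 to 0.260 over its alternatives). The 4 mpf values behind both include 0 in several libraries, and 46 to 193 of the 400 genes were listed at 0 in the libraries of that age, against 3 to 9 at 12 mpf. The part of these zeros, and of the higher rRNA share at 4 mpf, in the result was not tested.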

How the results depend on the processing

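The number of genes called by limma at 12 mpf, 1, became 2 with a pseudocount of 5 FPKM and with arrayWeights, which added thbs3a. It became 0 with all 12 libraries (13 at an unadjusted p under 0.05) and with limma voom (53 unadjusted). It ranged from 0 to 2 when single libraries were left out. Without any 1 wild-type library BX323041.1 had values in only 2 libraries and was not tested, so 0 genes passed without wild-type replicate 1 or 3 (limma, 50 and 49 unadjusted). With no filter, an alternative chosen after seeing the data, BX323041.1 passed in each case. Without wild-type replicate 2 thbs3a passed. The count of separate genes stayed at 80 under median-of-ratios scaling, with 71 of them shared and 39 higher, and ranged from 111 to 135 without single libraries, since 3 against 2 values separate more easily. Of the separate genes, 67.5% had an opposite 3' end inside and 72.5% within 1000 bases. The interaction count, 2, became 0 with a pseudocount of 0.1, with median-of-ratios scaling and with the replicate block (34, 34 and 27 unadjusted), and 1 with a pseudocount of 5. It ranged from 0 to 15 when single libraries were left out, with 15 without wild-type replicate 3 of 4 mpf. Except where the construction is named, the cause was not tested. Same-numbered libraries of 12 mpf did not deviate together (r of 0.07, -0.41 and -0.29). With 3 libraries per group these values are tied to one another and cannot decide whether the numbers pair the libraries. With the replicate block 1 gene was called at 12 mpf. Among 875 values of 40 named genes under alternatives, refits with no filter included, 0 reversed, 4 gained and 2 lost a call.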

Other observations

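Further separate genes face genes of mitochondria and secretion, chosen after their values were seen, and 0 of them passed. The gene atp6v1e1a lies 1266 bases from the 3' end of slc25a18, a mitochondrial glutamate carrier gene, and si:dkey-57n24.6 lies 2270 bases from that of acad9, a complex I assembly factor gene. Both were lower in the 3 Tg(myl7:ATF3) libraries than in the 3 wild-type libraries.

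The actinodin gene and1, a fin fold fibre gene that holds the 3' end of the adiponectin gene adipoqa, was at 22.8, 31.0 and 20.1 FPKM in Tg(myl7:ATF3) against 7.93, 4.60 and 17.4 FPKM in wild-type hearts (log2 difference 1.37, SE 0.51, limma, adjusted p = 0.279).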
